A study of Homo sapiens with 6 samples.

Results

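SLC7A11 and SLC3A2 encode the subunits of system xc-, the antiporter that takes up cystine in exchange for glutamate. They are 2 of the 17187 genes in the deposited table and were taken by symbol. Total RNA was sequenced from HT-1080, an established human fibrosarcoma cell line (labelled WT), in 6 libraries. For 3 of them the cells had received recombinant IFNg (interferon gamma, 10 ng/ml) during 8 h, and for the other 3, the control, PBS. No duration is given for the PBS. The series concerns the part CD8+ T cells play in tumour cell ferroptosis, and this comparison asks how IFNg, a cytokine those T cells release, bears on tumour cell transcripts. All libraries came from 1 cell line, and the labels do not say that they came from separate cultures, so p-values measure only the spread between these libraries, which may be technical.

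In the antiporter, SLC7A11 (xCT) is the light chain that carries the amino acids. SLC3A2 (CD98 heavy chain, 4F2hc) is a glycoprotein that is linked to the light chain by a disulfide bridge and brings it to the plasma membrane. Imported cystine is reduced to cysteine, the limiting building block of glutathione, which GPX4 uses to reduce lipid hydroperoxides. Blocking the antiporter, for example with erastin, starves cells of cysteine and can trigger ferroptosis, and HT-1080 cells are much used to study this. SLC3A2 also serves several other light chains, so it is not specific to cystine uptake.

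The RefSeq promoter table (GRCh38.p14) holds no window for SLC7A11, so that promoter was not searched. For SLC3A2 it gives 3 starts on chromosome 11, plus strand. The 250 bases before start 3 are shown because they hold the only match found in these windows to a core of an element bound by a factor named further on, NRF2. Capitals mark the match.
SLC3A2 start 3, chr11:62881449-62881698: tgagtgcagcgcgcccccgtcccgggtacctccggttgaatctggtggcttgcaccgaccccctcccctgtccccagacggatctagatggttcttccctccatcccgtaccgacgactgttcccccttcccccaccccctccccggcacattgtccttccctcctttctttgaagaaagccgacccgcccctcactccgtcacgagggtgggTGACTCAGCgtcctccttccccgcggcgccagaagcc
The core of the NRF2 antioxidant response element, TGACNNNGC, matched once, as TGACTCAGC from 37 bases before start 3. The ATF4 composite element core TGATGNAA and the interferon-stimulated response element core, GAAA repeated after a gap of 2 bases, searched on both strands like the NRF2 core, had no match in the 3 windows. Of 35116 RefSeq promoter windows of the same 250 bases, 10.9% held the NRF2 core, 3.14% the ATF4 core and 3.02% the interferon-stimulated core. These are shares of single windows. For SLC3A2 3 windows were searched, so a match in any of them is more common than the share says. The match is letters in a window, not a measured binding site. The deposited values give 1 number per gene, so the starts used in these cells were not resolved.

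Both subunit transcripts fell after IFNg, SLC7A11 to about a 0.499 share of its control mean and SLC3A2 to 0.731. All values are normalised read counts, that is, whole reads divided by 1 factor per library and not by gene length. SLC7A11 had 4593, 4382 and 5768 in IFNg libraries 1, 2 and 3, against 9867, 9485 and 10215 in control libraries 1, 2 and 3. The highest IFNg library, number 3, lay far below the lowest control library, number 2. SLC7A11 averaged 4914 ± 747 in IFNg and 9855 ± 365 in control cells (SD, n = 3 each), and so fell by 50.1%. The log2 difference, IFNg minus control, was -1.01 ± 0.11 (SE; 95% interval -1.26 to -0.77), with a limma adjusted p of 0.000127 over the 15546 genes tested.

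SLC3A2 moved in the same direction by a smaller amount. It had 15092, 14554 and 16325 in IFNg libraries 1, 2 and 3, against 19772, 21194 and 21893 in control libraries 1, 2 and 3. The groups did not overlap here either. SLC3A2 averaged 15324 ± 908 in IFNg and 20953 ± 1081 in control cells (SD, n = 3 each) and fell by 26.9%. Its log2 difference was -0.45 ± 0.09 (SE; 95% interval -0.64 to -0.26; limma adjusted p = 0.00968). The SLC3A2 call was lost without IFNg 1 (adjusted p = 0.0684), IFNg 2 (0.0844) or control 2 (0.0616), and when the variance was modelled without an intensity trend (0.119), while its log2 difference lay between -0.50 and -0.42 without each library in turn.

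**Figure D1:**
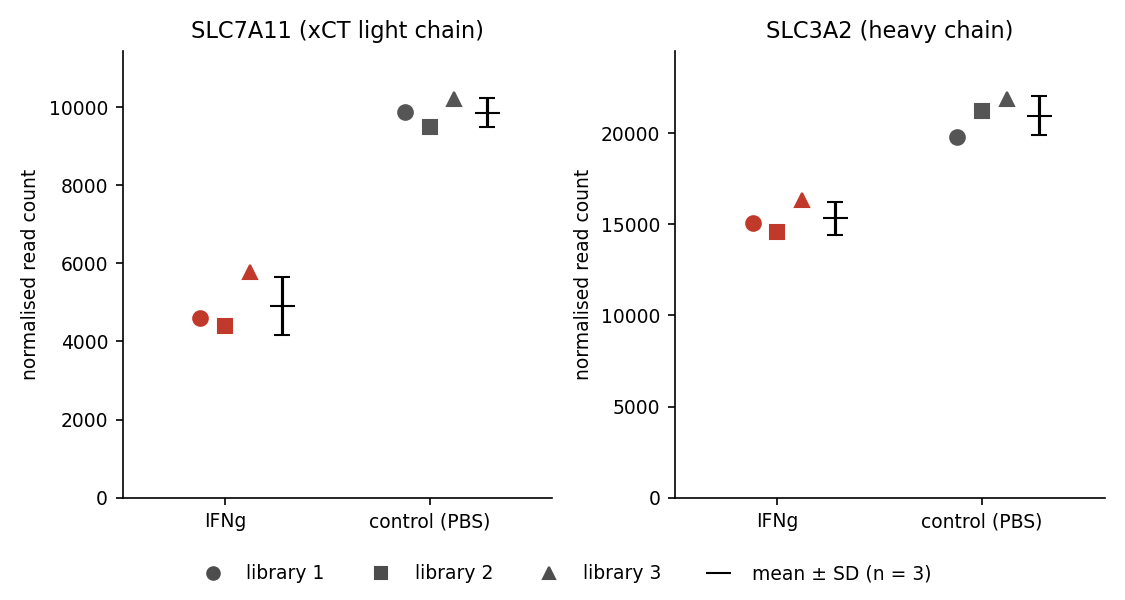
Normalised read count (y axes, linear from 0) of SLC7A11 (left) and SLC3A2 (right) in each IFNg (red) and control (grey) library, and, next to them, the mean with its SD over 3 libraries. The IFNg libraries lie at 4382 to 5768 for SLC7A11 and 14554 to 16325 for SLC3A2, below every control library.

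A bulk library cannot tell less RNA per cell from fewer cells that express a gene. In the limma test 4.32% of all genes were called, 1.05% lower and 3.27% higher. The groups did not overlap in 20.0% of genes, and in 9.28% every IFNg library lay below every control library. SLC7A11 ranked second by p among the 163 genes called lower, and SLC3A2 ranked 37. By the size of the log2 difference SLC7A11 ranked 18 and SLC3A2 130 among those 163. Among the 8343 genes with a mean of at least 1000, 8 (SLC7A11 included) were as low as SLC7A11 or lower, and 222 (SLC3A2 included) as low as SLC3A2 or lower. Reads behind the members numbered 4241 to 4979 per IFNg library and 9211 to 11357 per control library for SLC7A11. For SLC3A2 they numbered 14086 to 16244 per IFNg library and 18457 to 25377 per control library. Counting error alone was therefore at most 1.54% of any of these values, well under the spread between libraries.

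The balance of the subunits also differed between the groups. SLC7A11 over SLC3A2, a ratio within a library that does not depend on how that library was scaled, was 0.304, 0.301 and 0.353 in IFNg 1, 2 and 3, against 0.499, 0.448 and 0.467 in control 1, 2 and 3. Every IFNg library had a lower ratio than any control library, though the share of all genes separated in this way was not counted. The ratio averaged 0.320 ± 0.029 in IFNg and 0.471 ± 0.026 in control cells (SD, n = 3 each), so it was 32.3% lower after IFNg. In a limma fit of the ratio of every gene to SLC3A2, the log2 difference for SLC7A11 was -0.56 ± 0.11 (SE; 95% interval -0.81 to -0.32; adjusted p = 0.00243 over 15545 genes). SLC7A11 was thus lowered more than SLC3A2, a difference that passed without each library in turn (adjusted p up to 0.0186). In that fit 0.244% of genes were called lower relative to SLC3A2 and 42.2% were called in either direction; SLC3A2 itself is the denominator. An exact 2-sided permutation test of the 6 ratios gave p = 0.1, the smallest that 3 libraries against 3 allow, and it gave the same for each gene alone.

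**Figure D2:**
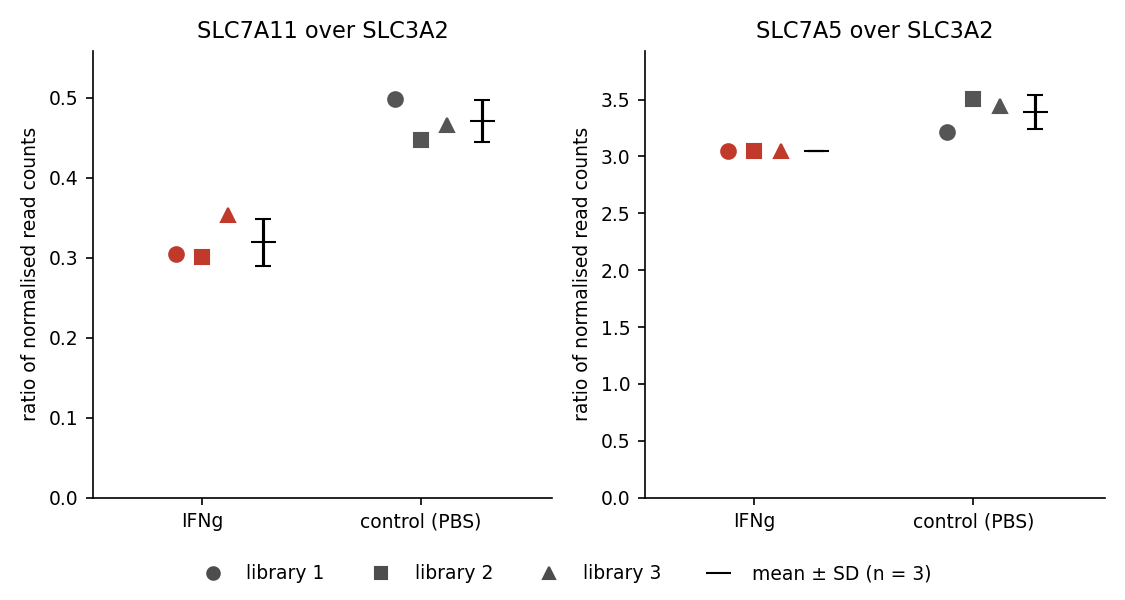
Ratio of normalised read counts (y axes, linear from 0) of SLC7A11 to SLC3A2 (left) and of SLC7A5 to SLC3A2 (right) in each IFNg (red) and control (grey) library, with mean and SD. The SLC7A11 ratio is 0.301 to 0.353 in IFNg and 0.448 to 0.499 in control libraries, while the SLC7A5 ratio is 3.04 to 3.05 in IFNg and 3.22 to 3.51 in control libraries.

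IFNg 3 had the highest SLC7A11 value, the highest SLC3A2 value and the highest ratio of its group. Set against each control library, IFNg 3 gave SLC7A11 log2 differences of -0.82 to -0.72, whereas IFNg 1 and IFNg 2 gave -1.22 to -1.05. For SLC3A2 the same comparisons gave -0.42 to -0.28 with IFNg 3 and -0.59 to -0.39 with IFNg 1 and 2. Libraries numbered 3 stood apart over the whole table in both groups: the second principal component, with 17.2% of the variance of 11701 genes, gave IFNg 3 a score of -16.2 and control 3 one of -24.3, against 7.58 to 12.5 elsewhere. With IFNg 3 and control 3 left out, the log2 difference was -1.11 for SLC7A11 (limma adjusted p = 1.6e-06), -0.47 for SLC3A2 (0.000918) and -0.64 for their ratio (7.72e-05).

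**Figure D3:**
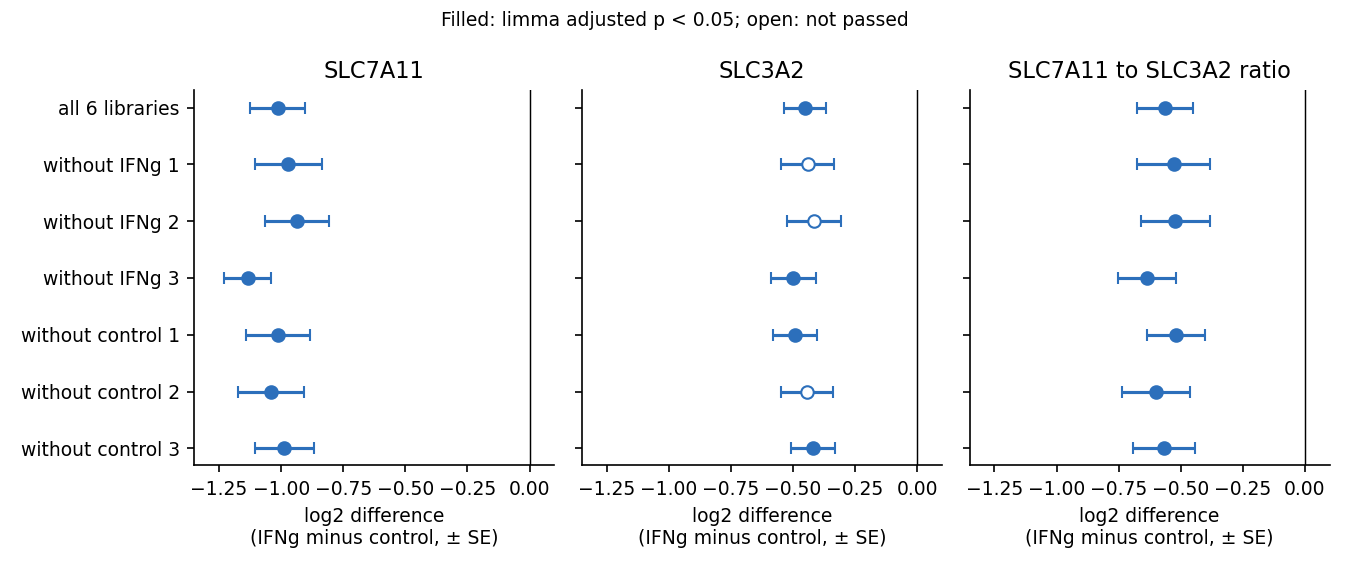
Log2 difference, IFNg minus control, with its SE (x axes) for SLC7A11, SLC3A2 and their ratio, with all 6 libraries and without each library in turn (rows). Open points did not pass a limma adjusted p of 0.05: SLC3A2 without IFNg 1, IFNg 2 or control 2, at -0.44, -0.42 and -0.44.

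Levels of the subunits were set side by side per length, as normalised reads per kb of exon in GENCODE 29, since no source used here gives the gene models behind the deposited values. SLC7A11 spans 9.64 kb of exon and SLC3A2 5.18 kb over all its transcripts or 2.22 kb in its longest coding transcript. Per kb of all exons, SLC7A11 reached 509 ± 77.4 in IFNg and 1022 ± 37.8 in control cells (SD, n = 3 each). SLC3A2 reached 2959 ± 175 in IFNg and 4047 ± 209 in control cells on the same scale. The heavy chain level was therefore 5.81 times that of SLC7A11 in IFNg and 3.96 times in control cells, or 13.5 times in IFNg and 9.23 times in control cells with the shorter SLC3A2 transcript length.

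The chains of this transporter class did not all pass. Of 10 heavy and light chain genes listed, 6 were tested, of which 3 were called lower (SLC7A11, SLC3A2 and SLC7A5) and 0 higher (0 at an unadjusted limma p under 0.05, and 0 by edgeR and DESeq2). Their median log2 difference was -0.53, against -0.01 over all genes tested, of which 1.05% were called lower and 3.27% higher. Without SLC7A11 and SLC3A2 themselves, 1 of 4 was lower, with a median of -0.22. SLC7A5 (LAT1), which pairs with SLC3A2 to exchange large neutral amino acids, had 46005, 44308 and 49718 in IFNg 1, 2 and 3, against 63618, 74352 and 75471 in control 1, 2 and 3. Its groups did not overlap, and its log2 difference was -0.61 ± 0.10 (SE; limma adjusted p = 0.00253, but 0.0845 without an intensity trend). Relative to SLC3A2 in the same library, SLC7A5 differed by -0.15 ± 0.11 (95% interval -0.39 to 0.08; limma adjusted p = 0.267), so that fit did not detect a difference between the responses of SLC7A5 and SLC3A2. The ratio did not overlap between the groups, at 3.04 to 3.05 in IFNg and 3.22 to 3.51 in control libraries. Its exact 2-sided permutation test gave p = 0.1, as for the SLC7A11 ratio. How many genes have a ratio to SLC3A2 that does not overlap between the groups was not counted.

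SLC7A6 (y+LAT2), another SLC3A2 partner, which exchanges cationic for neutral amino acids, had 5713, 5424 and 5659.8 in IFNg 1, 2 and 3, against 4500.3, 4508 and 6048 in control 1, 2 and 3. The groups overlapped, and the log2 difference of 0.17 ± 0.12 did not pass (limma adjusted p = 0.574). Relative to SLC3A2, SLC7A6 was higher in IFNg by 0.62 ± 0.12 (limma adjusted p = 0.00227), as were 42.0% of all genes in the fit of ratios to SLC3A2, so this call is not particular to SLC7A6. Per kb of all exons SLC7A6 lay at 715 to 753 in IFNg libraries, above SLC7A11 at 454 to 598. In control libraries SLC7A6 lay at 593 to 797, below SLC7A11 at 983 to 1059. These ranges did not overlap in either group, also with the length of the longest coding SLC7A6 transcript (859.9 to 906 in IFNg and 713 to 959 in control). By these GENCODE lengths the order of these light chains was thus reversed between the groups. With the longest transcript the control ranges lay close (959 against 983), and the lengths behind the deposited values are not known.

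SLC7A8 (LAT2) and SLC7A7 (y+LAT1), further SLC3A2 partners, were low. SLC7A8 had 247, 209 and 66.0 in IFNg 1, 2 and 3, against 123, 107 and 74.9 in control 1, 2 and 3, which overlap. SLC7A7, with 45 reads in IFNg and 136 in control libraries, had 0, 38.2 and 9.27 in IFNg, against 30.0, 65.1 and 29.2 in control libraries, which also overlap. By mean level per kb of all exons the order in IFNg was SLC7A5, SLC3A2, SLC7A6, SLC7A11, SLC7A8 and SLC7A7, and in control cells SLC7A5, SLC3A2, SLC7A11, SLC7A6, SLC7A8 and SLC7A7. Of neighbours in these orders, SLC7A8 (12.5 to 20.6) and SLC7A7 (5.69 to 12.7) overlapped per kb in control libraries. SLC3A1, the heavy chain of the kidney type cystine transporter, had 0 reads in IFNg and 27 in control libraries and did not pass the filter on low values.

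**Figure D4:**
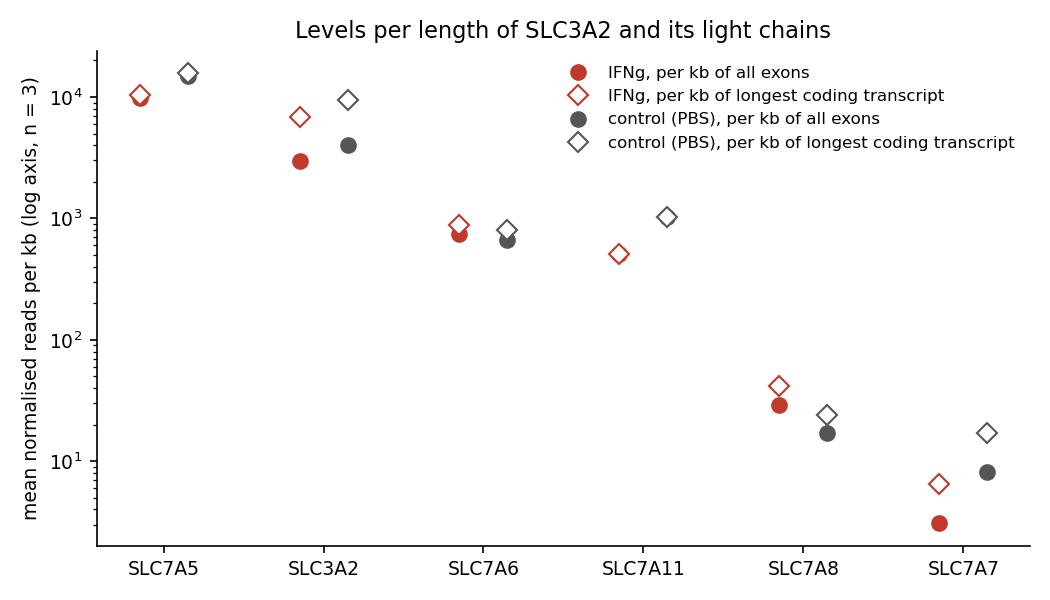
Mean normalised reads per kb (y axis, log scale; n = 3) of SLC3A2 and its light chains in IFNg (red) and control (grey) cells, per kb of all exons (filled) or of the longest coding transcript (open); for SLC7A11 both lengths are 9.64 kb. SLC7A11 lies below SLC7A6 in IFNg (509 against 738) and above it in control cells (1022 against 661).

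Among genes known to bear on SLC7A11 transcription, ATF4 fell, ATF3 and BACH1 rose, and 6 did not pass. Of 9 described and tested, 2 were called higher and 1 lower, with a median log2 difference of 0.03 against -0.01 over all genes. Shares called over all genes tested were 3.27% higher and 1.05% lower. ATF4, an activator of SLC7A11 and SLC3A2 in the amino acid response, had 31623, 29850.5 and 35865.5 in IFNg 1, 2 and 3, against 38921, 42522 and 45688 in control 1, 2 and 3. Its groups did not overlap, and the log2 difference of -0.39 ± 0.10 just passed (limma adjusted p = 0.0481). The ATF4 call was lost without IFNg 1 (adjusted p = 0.196), IFNg 2 (0.25), control 2 (0.196) or control 3 (0.0525), with a pseudocount of 10 (0.0512) or 0.1 (0.0571) in place of 1, with no filter on low values (0.0551), with scaling by library totals (0.0607) and without an intensity trend (0.264). ATF4 is controlled largely at translation, so its transcript level is not its activity.

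ATF3, a stress factor reported to repress SLC7A11, had 1119.6, 1228 and 1162 in IFNg 1, 2 and 3, against 454, 297 and 502 in control 1, 2 and 3. It rose by 1.52 ± 0.21 (log2, SE; limma adjusted p = 0.000955) and passed without each library in turn. BACH1, a repressor of antioxidant genes that competes with NRF2, rose by 0.73 ± 0.16 (limma adjusted p = 0.0256), a call lost without IFNg 1 (0.129), IFNg 2 (0.106), control 2 (0.062) or an intensity trend (0.273). NFE2L2, which encodes the activator NRF2, was at 10478 ± 1128 in IFNg and 10229 ± 544 in control cells (SD, n = 3 each; log2 difference 0.03, limma adjusted p = 0.934, not past the threshold). The other 5 genes (KEAP1, BAP1, CEBPB, MAFG and UPF1) had log2 differences between -0.19 and 0.18 and did not pass.

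Partners and regulators of the proteins were nearly all uncalled, and so were most genes tested (1.05% were called lower and 3.27% higher). Of 12 listed and tested, 1 was lower and 0 higher (limma; 0 higher at an unadjusted p under 0.05, and 0 by edgeR and DESeq2). These include OTUB1, a deubiquitinase that stabilises SLC7A11, CD44, which binds it, BECN1, which can inhibit it, and the SLC3A2 partners ITGB1 and BSG. The member that fell was SOCS2, a cytokine signalling suppressor, with 149, 183 and 129.7 in IFNg 1, 2 and 3, against 382, 376 and 277 in control 1, 2 and 3 (log2 difference -1.16 ± 0.28, limma adjusted p = 0.0377). The SOCS2 call was lost without any single library except control 3 (adjusted p of 0.0572 to 0.195). LGALS3, which encodes the SLC3A2-binding lectin galectin 3, had 1199.5, 965 and 583 in IFNg, against 1558, 1574 and 1260.5 in control libraries. Its log2 difference of -0.73 ± 0.23 missed the threshold with limma (adjusted p = 0.123) and passed with DESeq2 (0.0397).

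**Figure D5:**
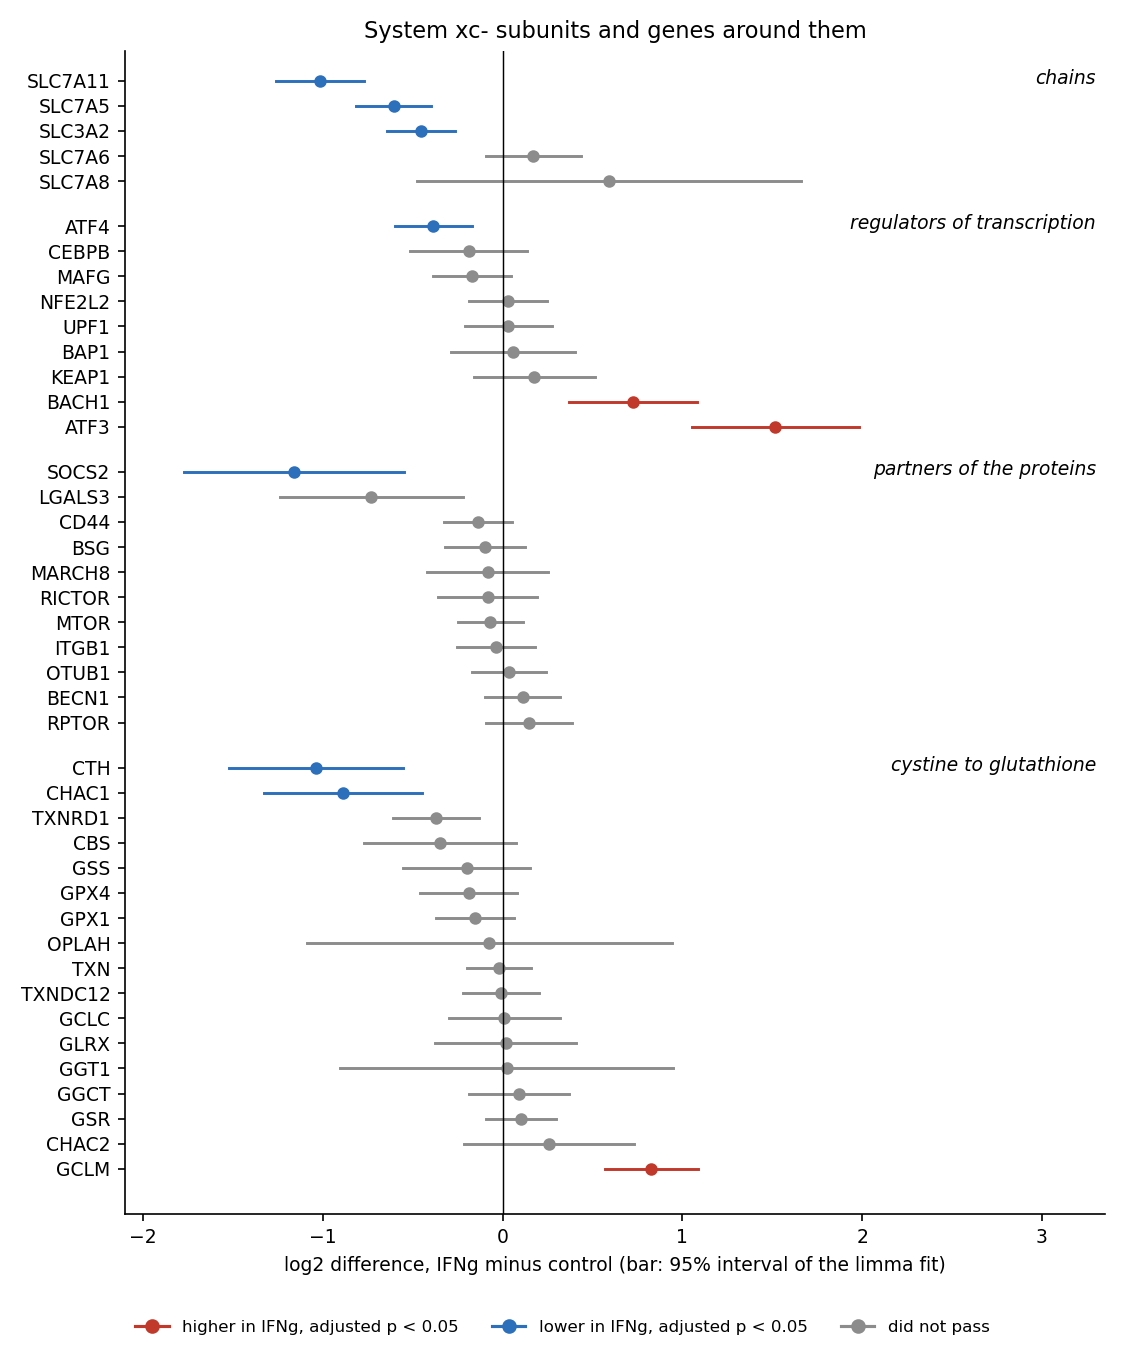
Log2 difference, IFNg minus control, with its 95% interval from the limma fit (x axis) for the chains, the regulators of SLC7A11 transcription, the partners of the proteins and the genes from cystine to glutathione (rows); SLC7A7 and MARCH1, whose intervals are very wide, are not drawn. SLC7A11 at -1.01 lies well left of SLC3A2 at -0.45, and ATF3 at 1.52 is farthest right.

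Downstream of cystine uptake, most transcripts did not pass, and neither did most genes tested (3.27% were called higher and 1.05% lower). Of 17 genes from cystine to glutathione, 1 was called higher and 2 lower, with a median log2 difference of -0.02 against -0.01 over all genes. GCLM, the modifier subunit of the enzyme that starts glutathione synthesis, had 6331, 7045 and 8568 in IFNg 1, 2 and 3, against 4369.6, 3966 and 3946 in control 1, 2 and 3, and rose (limma adjusted p = 0.00111). CTH, which makes cysteine inside the cell from cystathionine, had 803, 891 and 648 in IFNg, against 2025, 1789.7 and 1104 in control libraries, and fell (adjusted p = 0.0195). CHAC1, which breaks glutathione down, also fell, with 1004, 859.6 and 1045 in IFNg, against 1442, 1573 and 2522 in control libraries (adjusted p = 0.0269). The number called lower was 0 without IFNg 1, IFNg 3 or control 2, 1 without IFNg 2 or control 1, and 4 without control 3. GPX4, the enzyme that spends the glutathione, had 3768, 3653 and 2822 in IFNg, against 3678, 3964 and 3949.9 in control libraries and did not pass (limma adjusted p = 0.532).

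Genes that handle glutamate, the amino acid sent out in exchange for cystine, or cystine itself formed a further list. Of 18 listed, 15 were tested, and 3 were called higher and 2 lower, with a median log2 difference of 0.04. Shares called over all genes tested were 3.27% higher and 1.05% lower. SLC25A22, a mitochondrial glutamate carrier, rose by 1.04 ± 0.12 (SE; limma adjusted p = 0.000192). MFSD12, a lysosomal cysteine importer, rose by 0.67 ± 0.14 (0.0141), and SLC1A3, a plasma membrane glutamate importer, by 0.70 ± 0.15 (0.0203). SLC1A4 and SLC1A5, neutral amino acid exchangers, fell by 0.90 (adjusted p = 0.000694) and 0.39 (0.0294) on the log2 scale. The calls of MFSD12 and SLC1A3 were lost without any single library except control 3, and that of SLC1A5 without IFNg 1, IFNg 2, IFNg 3 or control 2 (adjusted p of 0.0531 to 0.18 over these). The number called lower was 4 without control 3.

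Of 34 ATF4 targets, a list without the antiporter genes, 14 were called lower and 2 higher, with a median log2 difference of -0.41 against -0.01 over all genes. Beside this list and the next, 1.05% of all genes tested were called lower and 3.27% higher. TRIB3, a pseudokinase, fell by 0.62 and STC2, a secreted glycoprotein, by 0.70 on the log2 scale, and both passed without each library in turn. JDP2, a transcription factor, fell by 1.10. The 2 higher members were ATF3 and WARS, the tryptophanyl-tRNA synthetase, at 3.08 ± 0.12. The number called lower was 5, 6 and 8 without IFNg 1, 2 and 3, and 10, 5 and 19 without control 1, 2 and 3. It was 2 when the variance was modelled without a trend. Of the 14, SLC7A5, SLC1A4, SLC1A5, CTH and CHAC1 also stand on lists given above. Of 24 NRF2 targets, 2 were called higher and 1 lower, with a median of -0.12. These were GCLM and the carbonyl reductase CBR1 (0.56 ± 0.12), and the heme oxygenase HMOX1 (-1.05 ± 0.17). The CBR1 call was lost without any single library except control 3 (adjusted p of 0.0507 to 0.106). Without an intensity trend in the variance, GCLM (limma adjusted p = 0.0678), STC2 (0.0658), JDP2 (0.0598), TRIB3 (0.119) and HMOX1 (0.0879) also missed the threshold. So did CBR1 (0.144) and, of genes named above, CTH (0.198), CHAC1 (0.219), SLC1A3 (0.103), SLC1A5 (0.205), MFSD12 (0.182) and SOCS2 (0.0658).

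The genes whose profile over the 6 libraries lay closest to each subunit were found by the root mean square (RMS) difference between centred log2 values, among 11700 genes with a mean of at least 100. For SLC7A11 the closest were GPR162, an orphan receptor gene (RMS 0.10), PLK2, a polo-like kinase gene (0.10), DACH1, a transcription factor gene (0.12), SLC1A4 (0.12) and ST8SIA1, a sialyltransferase gene (0.13). PLK2 had 8265, 8449 and 9829 in IFNg 1, 2 and 3, against 16645, 17380.3 and 15702 in control 1, 2 and 3, with IFNg 3 highest of its group as for SLC7A11. Of these 5, PLK2 (limma adjusted p = 7.8e-05) and SLC1A4 passed and the others did not (0.0662 to 0.109). With DESeq2, ST8SIA1 (adjusted p = 0.0101), GPR162 (0.0402) and DACH1 (0.0474) passed too, and ST8SIA1 also with edgeR (0.0444). For SLC3A2 the closest were ANKRD11, a chromatin regulator gene (0.03), the citron kinase gene CIT (0.04), LRIG1, which restrains growth factor receptors (0.05), ATF4 (0.05) and the ubiquitin ligase gene TRIM62 (0.05). ANKRD11 had 11172, 11114 and 12447 in IFNg, against 15457, 16590.3 and 16831 in control libraries. All but TRIM62 (limma adjusted p = 0.306) passed, and the calls of ANKRD11, CIT and LRIG1 were lost without IFNg 1 or IFNg 2, among others. SLC3A2 ranked 124 among the profiles closest to SLC7A11, whereas SLC7A11 ranked 6170 among those closest to SLC3A2, at the same RMS of 0.29. Likeness over 6 libraries in 2 groups mostly records the size of the group difference.

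The libraries held 59556948 (IFNg 3) to 83501954 (control 2) reads in genes. The response to IFNg was large: IRF1 averaged 28355 ± 2187 in IFNg and 624 ± 324 in control cells (SD, n = 3 each), and 12 of 17 interferon pathway genes were called higher and 1, the receptor gene IFNGR1, lower. The IFNGR1 call was lost without any single library except control 3, and without an intensity trend. Over all genes tested, 3.27% were called higher and 1.05% lower. Mesenchymal markers fitted the label in part. VIM averaged 369946 ± 48203 in IFNg and 380457 ± 44482 in control cells (SD, n = 3 each), whereas COL3A1 was at or near 0. The listed epithelial markers summed to 29101 to 34127 in IFNg and 23393 to 31939 in control libraries. The keratins KRT8 and KRT18 made up nearly all of that sum, and KRT8 and KRT18 did not pass. The other epithelial markers were low or absent. CLDN4 averaged 44.3 in IFNg and 56.3 in control cells, and KRT19 was at or near 0 except in IFNg 2 (26.9). EPCAM and CDH1 had no deposited values. T cell markers summed to at most 59.5 in IFNg and 57.6 in control libraries. Myeloid markers summed to 8837 to 14689 in IFNg and 10088 to 15828 in control libraries, nearly all of it CD68, while CD14 was at 0 in all but 1 library. The sum of mesenchymal markers was 688375 to 748542 in IFNg and 759967 to 804494 in control libraries, and its part in the subunit results was not tested.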

How the data were processed

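Per the labels' protocols, total RNA was purified on columns with DNase, ribosomal RNA was removed, and stranded libraries made with a globin kit were read from both ends in 50 cycles. The submitters' processing notes name builds hg19 and GRCh37 and the tools FastQC 0.11.3, TopHat2 2.0.13, Cufflinks and Cuffdiff 2.2.1, without saying what each did. No source used here gives the counter, its use of strand or the scaling step. The deposited table is named RPKM, but its values are a normalised signal: in each library 100% of positive values were whole multiples of 1 step (tolerance 0.001 reads), and the reciprocals of the steps equalled median-of-ratios size factors recomputed from the recovered reads. Values were thus read counts divided by 1 factor per library by the authors. Total reads per library were recovered in the same way. Within a group, libraries differed beyond sampling noise (chi-square over degrees of freedom 15.8 to 115), and all 6 were kept as separate samples.

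Values were tested as log2(value + 1) in limma 3.58.1 under R 4.3.3, with trended variance and group as the only term, over genes that reached 0.5 in at least 3 libraries, 2-sided, with Benjamini-Hochberg adjustment at 0.05 over all genes tested. "Passed", "called", "rose" and "fell" refer to that threshold. The ratio of subunits was tested by the same fit on log2 ratios of each gene to SLC3A2. A count of 0 allows up to 3 reads, and counting errors cover counting only. edgeR 4.0.16 and DESeq2 1.42.0 on the recovered reads, other pseudocounts, filters, scalings and leaving out libraries were alternatives. The fits were tested on simulated data. There limma recovered 31.3% of planted 1.5-fold changes and 68.7% of planted 2-fold changes, and 5 of its 126 calls were false. A gene that did not pass is therefore not shown to be unchanged.

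The members and gene lists were chosen with earlier results of these data known, and the study is known to have reported both subunit genes after IFNg in this line, so their direction is no independent evidence. Lists are described by counts and medians, and 2 genes and a promoter motif are not reported here. Members of short lists could be named freely. In longer lists up to 4 called members with the smallest p and up to 2 others were named, and the 5 nearest profiles of each subunit.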

Additional observations from a re-analysis of the deposited data

How the results depend on the processing

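SLC7A11 stayed lower and past the threshold under all 17 alternatives (log2 difference -1.13 to -0.94, adjusted p up to 0.0294), as did the SLC7A11 to SLC3A2 ratio under all 15 that could be fitted (-0.64 to -0.52, adjusted p up to 0.0313). edgeR and DESeq2 gave no value for the ratio. SLC3A2 stayed lower in all 17 (-0.50 to -0.42) and lost its call in 4: at -0.45 with no intensity trend, and without IFNg 1, IFNg 2 or control 2. The cause was not tested. The number of genes called higher, 509, was 279 with no trend, 882 without both libraries numbered 3, and 330 to 847 without each library in turn. The number called lower, 163, was 41 with no trend, 342 with DESeq2, 599 without both libraries numbered 3, and 37 to 455 without each library in turn. NFE2L2 changed sign, to -0.0896 without both libraries numbered 3, and lay between -0.0564 and 0.0774 without each library in turn (-0.0564 without IFNg 3 and -0.00247 without control 3).

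Over 36 single genes named, 525 of 612 alternative values kept direction and side of the threshold, 75 lost the call, 9 gained it and 3 changed sign. Of 306 counts over lists, 70 moved by more than 1.5 times or changed to or from 0. Scaling moved the median of all genes by less than 0.02 (log2).

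The replicate numbers pair the libraries only in part. Deviations from the group mean correlated at 0.069, 0.206 and 0.36 for same-numbered libraries 1, 2 and 3. IFNg 3 correlated best with control 3 (-0.129 with control 1 and -0.33 with control 2), and IFNg 2 with control 2. IFNg 1 correlated best with control 2 (0.225). The main fit leaves out any effect shared by libraries of the same number. With the replicate number as a block, 915 genes were called higher and 549 lower, and SLC7A11 (adjusted p = 1.71e-09), SLC3A2 (0.000105) and the ratio (2.75e-06) passed.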

Other observations

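Genes beside the subunit genes were read from a list of neighbours. PCDH18, a protocadherin gene and the nearest protein-coding gene on one side of SLC7A11 in RefSeq (GRCh38.p14), had 489.6, 307 and 369.5 in IFNg 1, 2 and 3, against 133, 78.5 and 161 in control 1, 2 and 3. Its groups did not overlap, and it rose by 1.67 ± 0.34 on the log2 scale (limma adjusted p = 0.0128). The PCDH18 call was lost without IFNg 1 (0.0941), control 2 (0.0546) or an intensity trend (0.0997). It was the only 1 of 7 neighbours tested that was called, and their median log2 difference was 0.05. Over all genes tested, 4.32% were called. On the other side of SLC7A11, CCRN4L (log2 difference 0.32, adjusted p = 0.369) and ELF2 (-0.03, adjusted p = 0.943) did not pass. SLC7A11-AS1, a noncoding gene that overlaps SLC7A11, had only 31.6, 42.4 and 10.4 in IFNg 1, 2 and 3, against 6.43, 20.04 and 5.84 in control 1, 2 and 3. These ranges overlap, and the log2 difference of 1.31 ± 0.80 did not pass (adjusted p = 0.501). The treatment of strand is not stated, so it is not known whether some reads of SLC7A11 were counted for SLC7A11-AS1, or the reverse. SLC7A11-AS1 had 84 reads in IFNg and 36 in control libraries, against 14163 and 31062 for SLC7A11. Near SLC3A2, WDR74, STX5 and the noncoding snoRNA host gene SNHG1 had log2 differences between -0.06 and 0.05 and did not pass, against -0.45 for SLC3A2.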
